A study of Danio rerio with 6 samples.

Results

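Purine nucleoside phosphorylases and the enzymes that salvage or deaminate free purine bases were described in iridophores sorted from zebrafish (Danio rerio) larvae and in the control cells of such larvae, labelled a general cell population. The set was chosen by gene name, with earlier results of these data known. It holds 9 genes, of which 8 had a row among the 11016 rows of the count table. These were the phosphorylase paralogs pnp4a, pnp4b, pnp5a, pnp5b and pnp6 (as the suffixed row pnp6_1), the phosphoribosyltransferase genes hprt1l and aprt, and gda. The remaining gene, hprt1, was not analysed here. Of the 8 rows, 6 had enough counts for the test and 2 (pnp5b and pnp6_1) did not.

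The iridophore group comprised 3 libraries of mCherry-positive cells and the control group 3 libraries of the general population. All larvae were 5 days post fertilization, are labelled WT, and carried the transgene Tg(pnp4a:PALM-mCherry), in which the pnp4a promoter drives a membrane-bound red fluorescent protein. About 20000 cells per library were collected, from 3 biological replicates. The labels give neither the number of larvae pooled nor whether the control was depleted of mCherry-positive cells. Because the promoter of pnp4a defined the sort, the level of pnp4a describes the sorted cells and is given without a test.

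Iridophores are pigment cells that reflect light from stacked purine crystals, which in fish are largely guanine. In mammals, purine nucleoside phosphorylase splits inosine and guanosine into ribose 1-phosphate and the free bases hypoxanthine and guanine. Hypoxanthine-guanine phosphoribosyltransferase runs the other way, joining those bases to phosphoribosyl pyrophosphate (PRPP) to give IMP and GMP, and adenine phosphoribosyltransferase does the same for adenine. Guanine deaminase removes guanine by turning it into xanthine. A cell that holds guanine thus stands at a branch point between its release, its salvage and its breakdown.

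Depth differed between the libraries, and the ranges of the groups overlapped. Total counts were 616439 to 1686552 in the iridophore libraries and 1612637 to 3282480 in the control libraries. A count of 3, taken as the floor of detection, amounted to between 1.69 and 5.50 CPM in iridophores, against 0.897 to 1.79 CPM in the control (CPM, counts scaled to a common library size). These floors and the intervals below cover counting error only. Of the 10 iridophore markers listed, 6 had rows, among them pnp4a. The other 5 were all called higher in iridophores, with a summed level of 447 to 1981 CPM in iridophores against 3.59 to 21.5 CPM in the control. Each of these 5 had enough counts for the test only with its iridophore libraries, so the calls are a description alone. By the same test 22.1% of all 6849 tested rows were called higher. The libraries tag the 3' ends of transcripts, so levels of different genes are compared in CPM without division by length. Whether molecular identifiers were counted is not given, so a count need not stand for 1 transcript. In bulk samples, fewer cells of a type and less RNA per cell cannot be told apart.

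The 2 populations differed in which phosphorylase paralog was most abundant. In iridophores pnp4a made up 87.9%, 92.8% and 86.2% of the summed phosphorylase counts of replicates 1, 2 and 3, against 2.18%, 4.21% and 4.43% in the control. In the control the most abundant paralog was pnp4b, which made up 6.89%, 2.94% and 3.13% of the sum in iridophores against 84.1%, 72.1% and 68.7% in the control. The number of pnp4a counts per pnp4b count was 12.8, 31.6 and 27.5 in iridophores, against 0.0259, 0.0585 and 0.0645 in the control. These shares are set in part by the sort on the pnp4a reporter and carry no test.

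**Figure D1:**
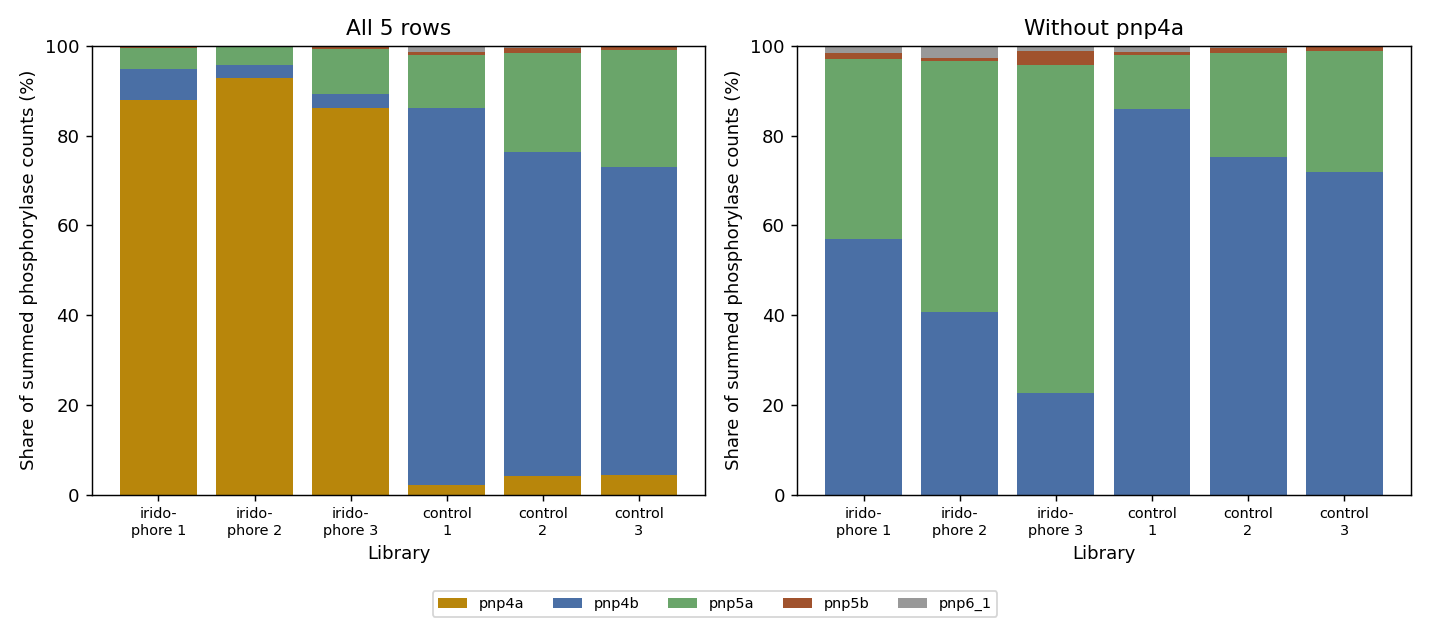
Share of each paralog in the summed phosphorylase counts of each library (%), for all 5 rows (left) and without pnp4a (right), with iridophore libraries before control libraries. With pnp4a it holds 86.2% to 92.8% of each iridophore bar and 2.18% to 4.43% of each control bar; without it, pnp5a takes a larger part of every iridophore bar than of any control bar.

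The gene pnp4a was measured at 1801, 2708 and 2710 CPM in iridophore replicates 1, 2 and 3, against 9.27, 17.3 and 20.5 CPM in the control. All 3 iridophore libraries lay far above all 3 control libraries, and the fitted log2 fold change was 7.29 (SE 0.36). By mean level it ranked 96th among the 11016 rows in iridophores and 3670th in the control. The summed level of all phosphorylase rows was 2703 ± 578 CPM in iridophores, against 433 ± 27.4 CPM in the control (SD, n = 3 each), a ratio of 6.25. Without pnp4a the sum was 247, 211 and 432 CPM in iridophores, against 417, 392 and 442 CPM in the control, and the groups overlapped.

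Its paralog pnp4b had 141, 85.7 and 98.4 CPM in iridophores, against 358, 295 and 318 CPM in the control. Every iridophore library was below every control library. It fell by 1.59 on the log2 scale (SE 0.23, edgeR adjusted p 0.000569), which left the iridophore level at 0.332 of the control level in the fit. Over all 6849 tested rows, 17.8% were called lower in iridophores by the same test and 24.9% had iridophore libraries all below the control libraries. The summed levels of 3 marker lists of other cells were also lower in iridophores. All 5 tested erythrocyte rows were called lower, with a summed level of 664 to 779 CPM in iridophores against 1371 to 1881 CPM in the control. Of 11 tested rows for liver, intestine and pancreas, 5 were called lower, with sums of 5199 to 6702 CPM in iridophores against 8880 to 18100 CPM in the control. Among the called rows, prss59.1 and cpa5 overlapped between the groups. Rows not called included apoa2, fabp10a and fabp2_1, with the control at 98.0%, 102.7% and 58.6% of the iridophore level. For epidermis 1 of 4 tested rows was called lower, which is near the 17.8% over all tested rows. Its sums were 2696 to 4117 CPM in iridophores against 4457 to 5556 CPM in the control. No marker of these 3 lists with a row was at 0 in every iridophore library. The part of such cells in the level of pnp4b was not tested.

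The paralog pnp5a did not pass the test and varied between libraries. It had 98.9, 118 and 315 CPM in iridophore replicates 1, 2 and 3, against 50.2, 90.5 and 120 CPM in the control. Iridophore replicate 3 stood above the other 5 libraries, which overlapped between the groups. Its fitted difference was 1.07 on the log2 scale (SE 0.45, edgeR adjusted p 0.0843). Leaving out iridophore replicate 3 gave 0.29 (edgeR adjusted p 0.583), leaving out iridophore replicate 1 gave 1.34 (edgeR adjusted p 0.0310) and leaving out control replicate 1 gave 0.74 (edgeR adjusted p 0.214). Library names end differently in replicate 1 than in replicates 2 and 3. Within replicates 2 and 3 alone pnp5a gave 1.05 (edgeR adjusted p 0.0252), and a fit that includes this ending gave 1.04 (edgeR adjusted p 0.0107). Whether pnp5a differs between the populations therefore depends on how the replicates are handled.

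With pnp4a left out, the phosphorylase counts consisted mainly of pnp4b and pnp5a. Their shares are not independent of the fall of pnp4b described above, since a lower pnp4b count by itself raises the share of pnp5a. The share of pnp5a was 40.0% (Wilson 95% interval 32.1 to 48.4), 55.9% (47.7 to 63.7) and 73.0% (69.7 to 76.0) in iridophore replicates 1, 2 and 3. In the control it was 12.1% (10.4 to 13.9), 23.1% (20.01 to 26.4) and 27.1% (24.3 to 30.2). The groups did not overlap, and the mean was 56.3% ± 16.5 in iridophores and 20.7% ± 7.79 in the control (SD, n = 3 each, exact permutation p 0.1, two-sided, the smallest that 3 against 3 allows). The share of pnp4b was 40.2% ± 17.2 in iridophores and 77.7% ± 7.35 in the control (SD, n = 3 each, exact permutation p 0.1, two-sided). The number of pnp4b counts per pnp5a count was 1.43, 0.728 and 0.312 in iridophores, against 7.13, 3.26 and 2.65 in the control. On the log2 scale, with 0.5 added to each count, this ratio differed by -2.52 between the groups (iridophores minus control, exact permutation p 0.1, two-sided), and that of pnp4b to pnp6_1 by -2.72 (exact permutation p 0.1, two-sided). The latter rests on few pnp6_1 counts (2, 4 and 9 in iridophores, 19, 3 and 2 in the control). Its difference ranged from -3.59 to -2.25 when libraries were left out. In a family of 6 such tests none could pass 0.05, and the Benjamini-Hochberg adjusted p was 0.15 for each of the tests with an exact p of 0.1.

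The remaining paralogs were close to the floor. The row pnp5b had 2, 1 and 24 counts in iridophore replicates 1, 2 and 3, against 9, 8 and 7 counts in the control. As for pnp5a, iridophore replicate 3 was the highest library, at 13.5 CPM. The row pnp6_1 had 2, 4 and 9 counts in iridophores, against 19, 3 and 2 counts in the control, where replicate 1 held most of them. With no filter on low counts, the log2 fold change was 1.03 for pnp5b (edgeR adjusted p 0.252) and 0.56 for pnp6_1 (edgeR adjusted p 0.576). Their shares of the phosphorylase counts without pnp4a overlapped between the groups (exact permutation p 0.3 and 0.2, two-sided, Benjamini-Hochberg adjusted p 0.3 and 0.24). At this depth no difference was detectable for either row.

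**Figure D2:**
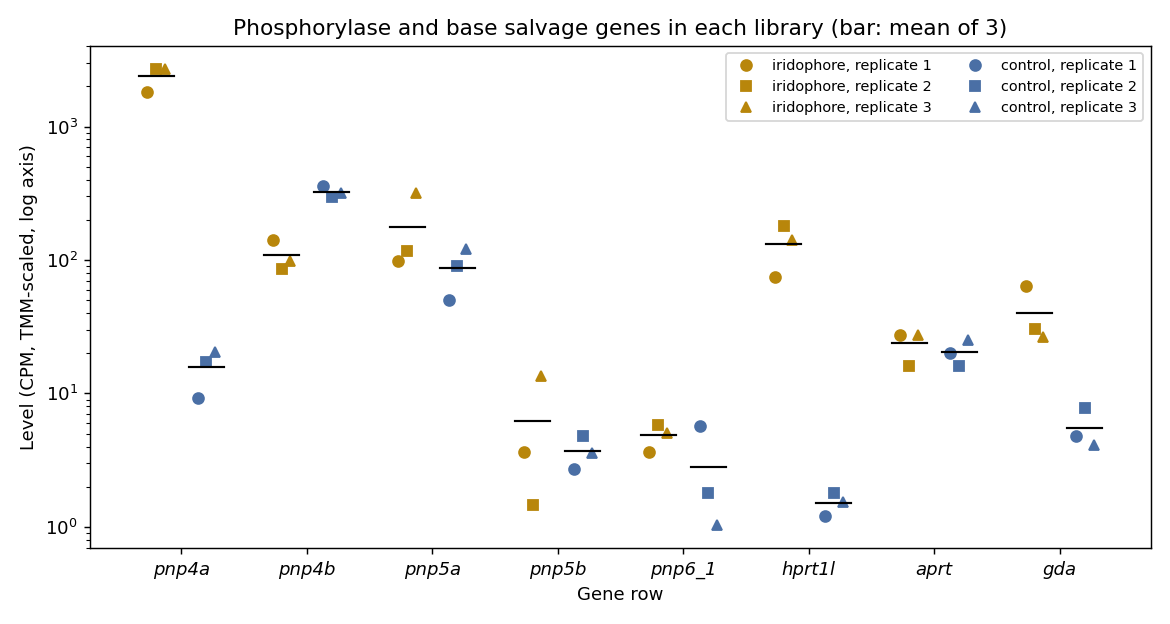
Level of each gene row in each library (CPM on a log axis), with iridophore libraries left of control libraries and a bar at the mean of 3. The groups separate for pnp4a, pnp4b, hprt1l and gda and overlap for pnp5a, pnp5b, pnp6_1 and aprt.

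Of the phosphoribosyltransferase genes of the set with a row, hprt1l differed between the populations and aprt was not called. The gene hprt1l, which by name is a paralog of hypoxanthine phosphoribosyltransferase, had 75.1, 179 and 141 CPM in iridophores, against 1.196, 1.79 and 1.54 CPM in the control. The control values rest on 4, 3 and 3 counts, whereas the iridophore libraries held 41, 123 and 250 counts. The gene therefore passed the filter on low counts through its iridophore libraries alone. Iridophore replicates 1 and 2 had a lower depth than every control library. It rose by 6.44 on the log2 scale (SE 0.43, edgeR adjusted p 4.813e-06), in 3 of 3 libraries, against a background of 22.1% of tested rows called higher. From 414 pooled iridophore counts and 10 pooled control counts the ratio of levels was 95.8, with an exact 95% interval of 51.6 to 201 for counting error alone. By mean level hprt1l ranked 857th of 11016 rows in iridophores and 9959th in the control, and by log2 fold change it ranked 55th of 6849. The control level was 1.15% of the iridophore level, against 0.652% for pnp4a and 0% to 2.35% for the other 5 listed iridophore markers with rows (alx4a, gpnmb, fhl2b, sox10 and tfec).

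The level of aprt, the gene of adenine phosphoribosyltransferase, was 27.5, 16.0 and 27.6 CPM in iridophores, against 20.04, 16.1 and 25.12 CPM in the control. The groups overlapped throughout their range, with a fitted difference of 0.23 on the log2 scale (SE 0.31, edgeR adjusted p 0.574). Leaving out control replicate 2 gave -0.015 (edgeR adjusted p 0.980). The gene therefore had no settled direction. There were 2.73, 11.2 and 5.10 hprt1l counts per aprt count in iridophores, against 0.0597, 0.111 and 0.0612 in the control. Thus hprt1l outnumbered aprt in each iridophore library, and aprt outnumbered hprt1l in each control library, with hprt1 not counted.

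Transcripts of gda, the gene of the enzyme guanine deaminase, which removes guanine, were also higher in iridophores. The gene had 64.1, 30.5 and 26.4 CPM in iridophores, against 4.79, 7.74 and 4.10 CPM in the control. Every iridophore library lay above every control library, with replicate 1 the highest. The counts behind these values were 35, 21 and 47 in iridophores, against 16, 13 and 8 in the control. It rose by 2.81 on the log2 scale (SE 0.42, edgeR adjusted p 0.000669). It ranked 457th by log2 fold change. Like hprt1l, gda passed the filter on low counts through its iridophore libraries alone. The control level was 13.7% of the iridophore level, above that of hprt1l and of each listed iridophore marker with a row. The number of hprt1l counts per gda count was 1.17, 5.86 and 5.32 in iridophores, against 0.250, 0.231 and 0.375 in the control.

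Of the 5 tested genes other than pnp4a, 2 were called higher (hprt1l and gda), 1 lower (pnp4b) and 2 were not called, with a median log2 fold change of 1.07. Both higher genes passed the filter on low counts only through the libraries where they are high, so the tally is a description alone. With no such filter both were called as well (edgeR adjusted p 2.978e-07 for hprt1l and 0.000283 for gda). Over all tested rows 22.1% were called higher and 17.8% lower, with a median of 0.01. Iridophore libraries lay all above the control libraries for 27.0% of tested rows. The calls of pnp4b, hprt1l and gda held when each library was left out, with log2 fold changes of -1.83 to -1.46, 6.19 to 6.69 and 2.35 to 3.06. Within replicates 2 and 3 alone they were -1.75 (edgeR adjusted p 1.752e-05), 6.48 (edgeR adjusted p 3.036e-08) and 2.23 (edgeR adjusted p 0.00103). With a single library per group, replicate 1 allows no test. Some cell lists were higher in iridophores along with hprt1l and gda: 6 of 7 tested skeletal muscle rows were called higher, with sums of 8241 to 10760 CPM in iridophores against 4155 to 4562 CPM in the control. Of 6 tested melanophore rows 3 were called higher, with sums of 308 to 576 CPM in iridophores against 64.3 to 276 CPM in the control, but 2 of the 3 are rows of 1 gene, slc45a2. Without these, 1 of the 4 other rows was called higher (dct), and the sums overlapped at 71.4 to 148 CPM in iridophores against 62.5 to 269 CPM in the control. The log2 fold changes of tyrp1a, tyrp1b and pmela were -0.83, -1.37 and -0.65, with no call. The macrophage list had 2 of 5 markers with a row and 1 tested, coro1a, which was called higher, with sums of 16.5 to 48.4 CPM in iridophores against 0.897 to 3.57 CPM in the control. Both slc45a2 rows, dct and coro1a passed the filter on low counts only with their iridophore libraries. The sums of the xanthophore, neuron and photoreceptor lists overlapped between the groups. Of their tested rows, 1 of 3, 0 of 6 and 2 of 5 were called higher, and 2 xanthophore rows were called lower. The part of any of these cells in the rises of hprt1l and gda was not tested.

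**Figure D3:**
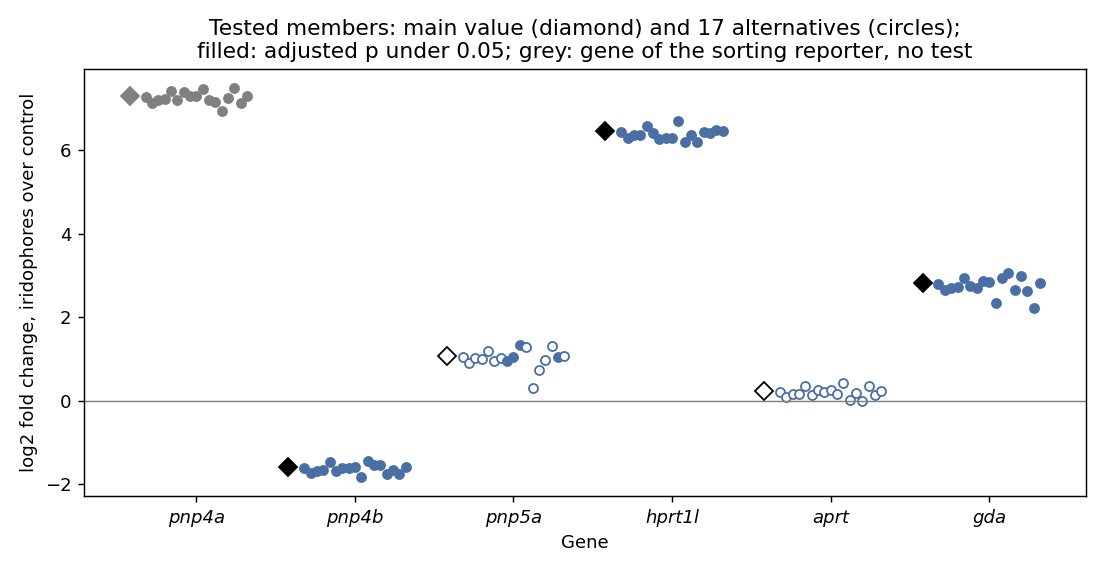
log2 fold change of iridophores over control for the 6 tested genes, with the main value as a diamond and 17 alternatives as circles, filled where the adjusted p is under 0.05 (pnp4a in grey, with no test). Values of pnp4b, hprt1l and gda stay filled throughout, while pnp5a is filled under 4 alternatives and drops to 0.29 without iridophore replicate 3.

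In order of mean level, the iridophore libraries held pnp4a, pnp5a, hprt1l, pnp4b, gda, aprt, pnp5b and pnp6_1. Ranges over the 3 libraries overlapped between pnp5a and hprt1l, between hprt1l and pnp4b, between gda and aprt, and between pnp5b and pnp6_1, so the order within those neighbours was not beyond their spread. In the control the order was pnp4b, pnp5a, aprt, pnp4a, gda, pnp5b, pnp6_1 and hprt1l. There the ranges of pnp4b, pnp5a and aprt were separate, those of aprt and pnp4a overlapped, and each neighbour from gda down to hprt1l overlapped with the next. The gene hprt1l thus stood at rank 3 of 8 in iridophores and at rank 8 in the control.

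Other genes of purine metabolism were compared to place these enzymes. Over all tested rows 22.1% were called higher and 17.8% lower, and each list below holds few tested genes. PRPP, the sugar phosphate that the transferases need, is made by phosphoribosyl pyrophosphate synthetases. Of 3 tested genes of this list, 2 were called higher and 0 lower: the synthetase gene prps1a had 249 ± 128 CPM in iridophores, against 35.3 ± 5.18 CPM in the control (log2 fold change 2.84, SE 0.39, edgeR adjusted p 0.000394, SD, n = 3 each), and the synthetase-associated gene prpsap1 rose by 2.16 on the log2 scale (SE 0.24, edgeR adjusted p 9.536e-05). Its relative prpsap2 had 12.4 ± 6.47 CPM in iridophores, against 14.0 ± 0.866 CPM in the control (SD, n = 3 each).

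Nucleosides cross membranes through equilibrative nucleoside transporters. Of 11 listed transporters 3 had rows and 2 were tested, and both were called higher (22.1% over all tested rows). Both passed the filter on low counts only with their iridophore libraries, where they are high, so this count is a description alone. The gene slc29a1a had 225 ± 41.3 CPM in iridophores, against 7.33 ± 3.66 CPM in the control (log2 fold change 4.96, SE 0.35, edgeR adjusted p 6.378e-06, SD, n = 3 each). The gene slc29a3, whose mammalian counterpart is a transporter of lysosomal membranes, had 24.4 ± 3.73 CPM in iridophores, against 2.82 ± 0.369 CPM in the control (log2 fold change 3.14, SE 0.34, edgeR adjusted p 9.155e-05, SD, n = 3 each). The paralog slc29a1b, which was under the filter, had 2, 0 and 1 counts in iridophores, against 23, 10 and 11 counts in the control.

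The list of nucleotidases, nucleoside kinases and deaminases, which feed or drain the substrates of the phosphorylases, was mixed: of 14 tested genes 3 were called higher, 3 lower and 8 were not called, with a median log2 fold change of -0.39. Both counts are near the share over all tested rows (22.1% higher and 17.8% lower), so the list did not stand apart from it. The 3 lower genes, which encode 5'-nucleotidases, were nt5e, with 9.86 ± 1.304 CPM in iridophores, against 31.2 ± 8.20 CPM in the control (log2 fold change -1.72, edgeR adjusted p 0.00278, SD, n = 3 each), nt5c2b (log2 fold change -1.58, edgeR adjusted p 0.00424) and nt5c1ba (log2 fold change -1.88, edgeR adjusted p 0.0286). The call of nt5c1ba was lost without iridophore replicate 1, iridophore replicate 2, control replicate 2 or control replicate 3 (edgeR adjusted p 0.0527 to 0.0775), and leaving out iridophore replicate 3 gave a log2 fold change of -3.09. The guanylate kinase gene guk1a, whose product phosphorylates GMP, had 189, 44 and 695 counts in iridophores, against 0, 10 and 20 counts in the control. It rose by 5.78 on the log2 scale (SE 0.94, edgeR adjusted p 0.00101); leaving out control replicate 1 gave 4.98 and leaving out control replicate 3 gave 6.78. The other called genes of the list, named after their values were seen, were itpa (log2 fold change 1.35, edgeR adjusted p 0.0156) and adka (log2 fold change 1.195, edgeR adjusted p 0.00828). Both guk1a and itpa passed the filter on low counts only with their iridophore libraries, and nt5c2b and nt5c1ba only with their control libraries.

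In the branch that leads from IMP to GMP and AMP, 3 of 5 tested rows were called higher and 1 lower. Over all tested rows the shares were 22.1% higher and 17.8% lower. Among them gmps, which makes GMP, had 249.5 ± 32.9 CPM in iridophores, against 16.7 ± 4.69 CPM in the control (SD, n = 3 each). The row adsl_1, for adenylosuccinate lyase, rose by 2.90 on the log2 scale (SE 0.22, edgeR adjusted p 9.993e-06). It held 121, 204 and 561 counts in iridophores, against 130, 60 and 72 counts in the control. The unsuffixed row adsl, under the filter, held 3, 2 and 6 counts in iridophores, against 3, 2 and 1 counts in the control. How reads were divided between these rows is not given. The IMP dehydrogenase genes impdh1b and impdh2 were called in opposite directions. Of 6 listed genes of purine degradation 4 had rows and 2 were tested. Against the same shares over all tested rows, 0 were called higher and 1 lower. This was allc, the gene of allantoicase, with 2, 1 and 3 counts in iridophores, against 36, 11 and 15 counts in the control. As all iridophore libraries of allc were at or under the floor, its fitted log2 fold change of -2.04 (edgeR adjusted p 0.0115) depends on the prior count. Against the floor it was at least 2.17-fold lower, and it passed the filter on low counts only with its control libraries. The call was lost when iridophore replicate 3 (edgeR adjusted p 0.0828) or control replicate 1 (edgeR adjusted p 0.0580) was left out. The gene xdh, for the xanthine dehydrogenase that acts after guanine deaminase, was under the filter, with 1, 1 and 2 counts in iridophores, against 11, 10 and 11 counts in the control. The row aox5 of this list was also under the filter and went the other way near the floor. It had 2, 1 and 6 counts in iridophores, against 1, 2 and 0 counts in the control (mean 2.83 against 0.497 CPM).

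**Figure D4:**
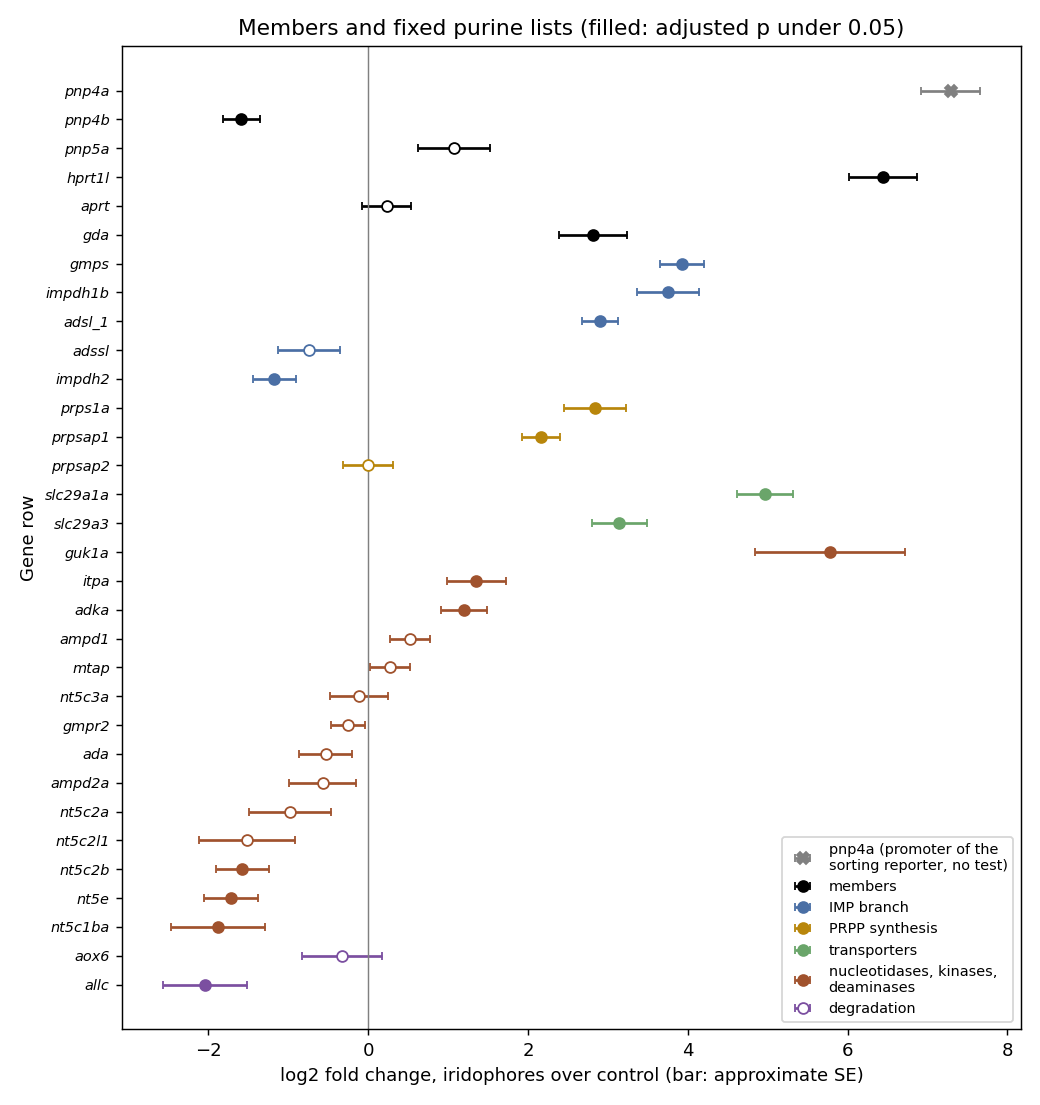
log2 fold change of iridophores over control with its approximate SE for the tested genes of the set (black, with pnp4a as a grey cross and no test) and of 5 fixed purine lists, filled where the adjusted p is under 0.05. The 2 tested transporters, 2 of 3 PRPP genes and 3 of 5 rows of the IMP branch are filled to the right of 0, with impdh2 of that branch filled to its left. Of the list of nucleotidases, kinases and deaminases, guk1a, itpa and adka are filled to the right and nt5e, nt5c2b and nt5c1ba to the left. The transporters, guk1a and itpa passed the filter on low counts only with their iridophore libraries. Over all tested rows 22.1% were called higher and 17.8% lower.

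The genes most like hprt1l in their pattern over the 6 libraries, by the root mean square distance of centred log2 CPM, were si:ch211-160j14.2, slc2a15b, sytl2a, si:ch211-38m6.6 and syne1b, with distances of 0.244 to 0.386. For pnp4a they were apoda.1, pltp, si:ch211-243a20.3, akap12a and si:ch211-256m1.8, with distances of 0.262 to 0.370. For pnp4b they were scp2a, LOC108191643, nocta, ca2 and tm4sf5, with distances of 0.0790 to 0.109. No gene was on more than 1 of these lists. With 2 groups of 3 libraries, this likeness mostly reflects a similar fold change.

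Genes next to each member were looked up in the RefSeq table of the GRCz12tu assembly, used for gene order alone because it differs from the danRer11 build named for the counts. All 8 rows matched a RefSeq symbol. Of 32 flanking genes (2 on each side), 8 were tested, with 0 called higher and 2 lower. Over all tested rows 22.1% were called higher and 17.8% lower. The tested neighbours of pnp4a (trib3 and rbm39a), hprt1l (wwox), gda (zfand5a) and aprt (ctu2 and galns) were not called. The 2 lower genes were decr1, beside pnp4b (log2 fold change -0.72, edgeR adjusted p 0.0187), and got2a, beside pnp6 (log2 fold change -1.24, edgeR adjusted p 0.0205). In that table pnp4a, pnp4b and aprt overlap another gene (sox12, kiaa0319 and cdt1), none of which had a row. Since the use of strand in the counting is not stated, reads of such partners cannot be told apart from those of the 3 genes.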

How the data were processed

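Poly(A) RNA of sorted cells was made into 3'-end libraries by bulk MARS-seq and sequenced on an Illumina NextSeq, per the labels' protocols. The deposited table holds raw whole-number counts per gene symbol, which the authors had not normalized, and has 0 columns without a sample. The submitters' processing notes name cutadapt, STAR 2.5.2b, HTSeq, DESeq2 1.36.1 and the build danRer11. Which annotation was used, whether molecular identifiers were counted and how genes were filtered is not given in the sources used here. Near-identical paralogs may have split or lost reads.

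Groups and replicate numbers came from sample titles, and columns were matched through library names. edgeR 4.0.16 in R 4.3.3 was run on the deposited counts of all 6 libraries (filterByExpr, minimum count 10 and total 15, 6849 rows with 98.7% of counts; TMM factors; quasi-likelihood F test on group; Benjamini-Hochberg over all tested rows, threshold 0.05). Standard errors are the absolute log2 fold change over the square root of F. The script was tested on simulated data with a common dispersion for all genes. It recovered 26% of genes with a true log2 fold change of 1 and 98% of those with 2. For -1 and -2 it recovered 26.2% and 87.2%, so changes near 1 can be missed. Shares and paralog ratios were compared with exact permutation tests (scipy 1.17.1). The planned share of hprt1l in the sum of hprt1 and hprt1l was not computed. Alternatives used other scalings and filters, DESeq2 1.42.0, limma-voom (limma 3.58.1), added terms and left-out libraries.

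All members are named, up to 4 called genes of each pathway list, and the 5 genes nearest to hprt1l, pnp4b and pnp4a. Members and lists were chosen with earlier results of these data known.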

Additional observations from a re-analysis of the deposited data

How the results depend on the processing

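Across 17 alternatives of the whole fit, the rows called higher numbered 1089 to 1793 against 1513 in the main fit, and those called lower 860 to 1514 against 1217; leaving out libraries gave 1248 to 1704 higher and 860 to 1468 lower. The calls of pnp4b, hprt1l and gda held under all 17. The 4 alternatives that called pnp5a higher were the replicate block (log2 fold change 0.94, edgeR adjusted p 0.00488), the ending of the library name, and the fits without iridophore replicate 1 and without replicate 1 of both groups; the cause was not tested. The only reversal of direction was that of aprt, to -0.015 without control replicate 2, in a range of -0.015 to 0.42 over left-out libraries; the cause was not tested. DESeq2 did not call nt5c1ba or allc (adjusted p 0.0743 and 0.0511), and limma-voom gave 7.27 for guk1a. Deviations of same-numbered libraries from their group means correlated across genes at 0.315, 0.071 and 0.175 for replicates 1, 2 and 3, so the numbers were not taken as pairs (one value is under 0.1). Between replicates 2 and 3 across groups the correlations were 0.12 and 0.119, and between replicate 1 and the others -0.241 to -0.152. Deviations from a group mean cancel out within the group for each gene. These values are therefore not independent of the 0.315 of replicate 1. A difference by the ending of the library names was not tested as their cause. Iridophore replicate 2 correlated best with control replicate 3, not with its own number. With the replicate block 1584 rows were higher and 1387 lower. Upper-quartile factors moved the median log2 fold change of all tested rows to -0.14, against 0.01 with TMM. The mean share of pnp5a without pnp4a was higher in iridophores by 27.2 to 43.7 percentage points when libraries were left out, where 3 against 2 libraries cannot give an exact permutation p under 0.2. Division by coding length was not run. Depth limits pnp5b, pnp6_1 and the control level of hprt1l.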
